A study of Danio rerio with 9 samples.

Results

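The semaphorins and their receptors were examined in whole larval zebrafish (Danio rerio) after exposure to perfluorononanoic acid (PFNA), a perfluoroalkyl acid that persists in the environment. Members were all genes of the deposited tables whose symbol starts with sema or plxn or names a neuropilin (nrp1 or nrp2). The rule found 42 of 19852 genes, namely 27 semaphorins (the ligands) and 15 receptors, of which 11 were plexins and 4 were neuropilins. Of the semaphorins, 12 belong to class 3, 6 to class 4, 3 to class 5, 5 to class 6 and 1 to class 7. SEMA4D and SEMA4F are written in capitals in the tables, fall outside the rule and are given separately.

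Semaphorins are secreted or membrane-bound guidance cues that repel or attract growing axons, migrating cells and vessel sprouts. Plexins are the transmembrane receptors that carry the signal into the cell, where they act on the cytoskeleton. Most secreted class 3 semaphorins bind a neuropilin, which has a short cytoplasmic tail and signals together with an A-type plexin, while class 4 semaphorins are mainly ligands of B-type plexins. Zebrafish carry many of these genes as pairs of copies from the genome duplication of teleost fish.

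Fertilized embryos of AB × Tübingen parents were kept for 7 days in rearing medium that held PFNA at 10 µg/L, PFNA at 0.1 µg/L or the solvent alone (0.1% DMSO), and the PFNA stocks were prepared in the same solvent. Each of the 3 groups had 3 replicates, and each replicate was a beaker of 14 to 15 whole larvae pooled for RNA. The paper mentions more RNA samples for library construction than the 9 libraries used here, and the sources do not say what became of the rest. Libraries were poly(A)-selected and strand-directed. The sources used here do not say whether the beakers came from separate spawnings, so the p-values measure the spread between beakers.

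Recovered reads per library lay between 14491289 and 23963715. DMSO replicate 3 and 0.1 µg/L replicate 2 stood apart from their own groups: on the first principal component over all genes (52.1% of the variance) the 10 µg/L libraries lay between 39.2 and 51.1, DMSO replicate 3 at 40.8 and 0.1 µg/L replicate 2 at 18.5, while the other 4 libraries lay between -67.5 and -31.1. DMSO replicates 1 and 2 carried other first sequencing indexes than the remaining 7 libraries. All 33 genes fixed as markers of neurons, glia, endothelium, skeletal muscle, epidermis, liver and gut were detected in every library, as whole larvae should show. The lowest value of any of them was 44.3 scaled counts. In whole larvae, fewer cells of a type and less RNA per cell cannot be told apart. For most named members that leaving out one of these libraries took past the adjusted threshold, the value without it is given as well. A value given alone can also depend on these libraries. Both were singled out because they lay towards the 10 µg/L libraries, so smaller p-values without them are no support.

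Levels are given as scaled counts, the reads of a gene in a library divided by 1 set of size factors over all 9 libraries. They depend on gene length, so genes are compared only between libraries and not with each other. Fold changes against DMSO are log2 differences of the deposited normalized counts plus 1, each concentration within its own table, with the standard error (SE) and the Benjamini-Hochberg adjusted p of limma over all genes tested. Every member had a mean of at least 10 normalized counts where it was listed, and all 42 were tested at 10 µg/L. At 0.1 µg/L 40 were tested, because sema3ab and sema6ba were listed only in the 10 µg/L table. Both had a DMSO mean under 10 normalized counts (4.75 and 9.29), so they passed the minimum only through the exposed group.

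**Figure D1:**
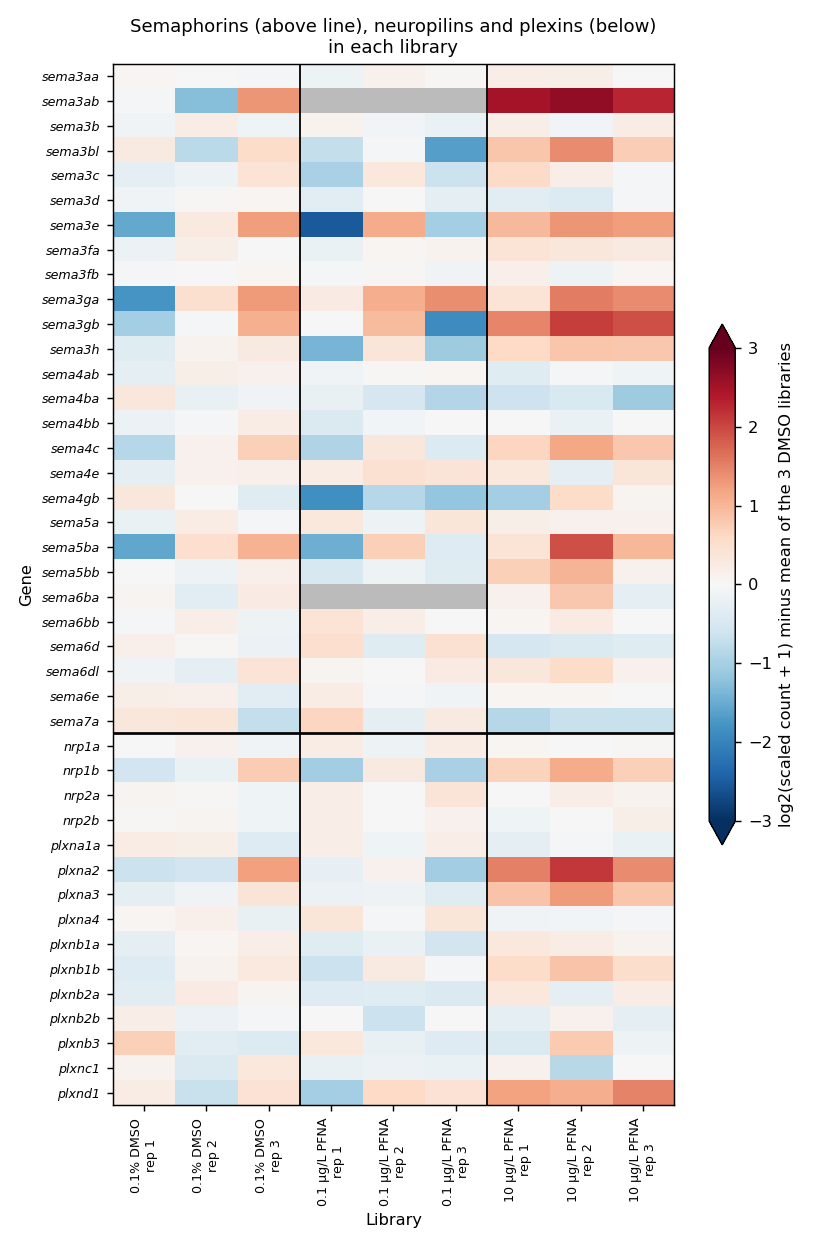
Heatmap of the 42 members (rows) in the 9 libraries (columns, from DMSO through 0.1 µg/L to 10 µg/L PFNA, 3 replicates each). Colour shows log2(scaled count + 1) minus the mean of the 3 DMSO libraries, limited at the ends of the bar, and grey marks genes not listed in the 0.1 µg/L table. A block of members (among them plxna2, plxna3, sema3gb and nrp1b) is red in all 3 libraries at 10 µg/L and also in DMSO replicate 3. This control is weaker than the exposed libraries for plxna2, plxna3 and sema3gb, but not for nrp1b.

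The first comparison asked how the family differed between larvae at 10 µg/L PFNA and DMSO larvae. Higher levels were the more common direction: 31 of 42 members had a positive log2 fold change, where 50.8% of all genes did, and the median was 0.13 over the members against 0.0065 over all genes tested. At an unadjusted limma p under 0.05 there were 10 members higher and 3 lower at 10 µg/L, 13 of 42 in all, where 13.1% of all genes tested passed (7.91% higher and 5.21% lower). None of the 42 passed the adjusted threshold of 0.05 in limma or in edgeR, as 0.0% of all genes did. edgeR had 11 members at an unadjusted p under 0.05, but the share of all genes there was not counted, so this number has no comparison. DESeq2 on the recovered reads called 1 member, plxna3, where it called 1.21% of genes. In 11 members all exposed libraries lay on 1 side of all DMSO libraries (9 higher, 2 lower), against 18.0% of all genes (9.76% higher, 8.24% lower).

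The count at an unadjusted p under 0.05 depended on single libraries. It was 7 without DMSO replicate 1, where 9.17% of all genes passed, 7 without 10 µg/L replicate 2, where 6.63% did, and 18 without DMSO replicate 3, where 26.9% of all genes passed. Without DMSO replicate 3, 9 members passed the adjusted threshold in limma, against 11.1% of all genes, with adjusted p-values between 0.00285 and 0.0451. These were the receptors plxna2, plxna3, plxnb1b, plxnd1 and nrp1b and the ligands sema3gb, sema3ab and sema4c, all higher, and the ligand sema7a, which was lower. With all libraries 0.0% of all genes passed, and the library left out was the control that lay among the exposed ones. The 9 calls therefore show how much rests on this library and are no support for a difference in the family.

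Of the receptors, 5 of 15 were higher at an unadjusted p under 0.05 and none was lower, against 7.91% and 5.21% of all genes. Plexin A3 is a receptor for class 3 semaphorins, and in zebrafish it is needed for motor axons to leave the spinal cord at their proper place. plxna3 had 296, 396 and 291 scaled counts in the 10 µg/L libraries, against 132, 152 and 214 in the DMSO libraries. Every library at 10 µg/L was above every DMSO library, and DMSO replicate 3 was the highest control. The log2 fold change was 0.98 (SE 0.22, limma adjusted p = 0.224, DESeq2 adjusted p = 0.0255), the smallest limma p of the family and number 102 of the 19610 genes tested. Without DMSO replicate 3 it was 1.17 (limma adjusted p = 0.00523).

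The related receptor plexin A2, which binds class 6 semaphorins in mouse and zebrafish, had the largest log2 fold change among plexins. plxna2 had 97.9, 151 and 92.6 scaled counts at 10 µg/L, against 21.2, 22.6 and 80.5 in DMSO larvae. DMSO replicates 1 and 2 were close to each other, and DMSO replicate 3 was just under the lowest library at 10 µg/L. This gave a log2 fold change of 1.67 (SE 0.47, limma adjusted p = 0.242), and 2.28 without DMSO replicate 3 (adjusted p = 0.00285). The other plexins of the A type, plxna1a and plxna4, had log2 fold changes of -0.18 and -0.084, with an SE of 0.19 and 0.15. Without DMSO replicate 3 these were -0.38 and -0.19.

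Plexin D1 is a receptor of Sema3e in mouse. plxnd1 had 39.9, 36.7 and 48.8 scaled counts at 10 µg/L, against 19.7, 10.2 and 23.1 in DMSO larvae, and the groups did not overlap. Its log2 fold change was 1.25 (SE 0.40, limma adjusted p = 0.264), and 1.47 without DMSO replicate 3 (adjusted p = 0.0451). The semaphorin gene sema3e had 39.0, 50.5 and 48.0 scaled counts at 10 µg/L and 6.06, 24.1 and 47.8 in DMSO larvae. The 3 DMSO libraries of sema3e differed by 7.89-fold and overlapped with the exposed ones, and the log2 fold change was 1.17 (SE 0.61, limma adjusted p = 0.441). Leaving out DMSO replicate 3 gave 1.80 for sema3e (adjusted p = 0.0519).

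plxnb1b, a copy of the gene for the receptor of Sema4d in mammals, had 358, 442 and 353 scaled counts at 10 µg/L, against 185, 263 and 297 in DMSO larvae, with no overlap. Its log2 fold change was 0.64 (SE 0.20, limma adjusted p = 0.268), and 0.78 without DMSO replicate 3 (adjusted p = 0.029). The other 4 B-type plexins had log2 fold changes between -0.16 (plxnb2b) and 0.21 (plxnb1a). plxnc1, whose product is a receptor of Sema7a in mammals, was at -0.24 (SE 0.32), and at -0.077 without DMSO replicate 3.

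Of the neuropilins, nrp1b alone passed the unadjusted threshold. Neuropilin 1 is shared by Sema3a and vascular endothelial growth factor. nrp1b had 198, 269.9 and 205 scaled counts in larvae at 10 µg/L, against 83.4, 108 and 210.4 in DMSO larvae. DMSO replicate 3 lay above 2 of the 3 exposed libraries, so the groups overlapped, while DMSO replicates 1 and 2 lay under all of them. The log2 fold change was 0.83 (SE 0.31, limma adjusted p = 0.322), and 1.20 without DMSO replicate 3 (adjusted p = 0.00766). The remaining neuropilins (nrp1a, nrp2a and nrp2b) had log2 fold changes between 0.0091 and 0.10. In all, the 10 receptors that did not pass the unadjusted threshold had log2 fold changes between -0.24 and 0.21.

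**Figure D2:**
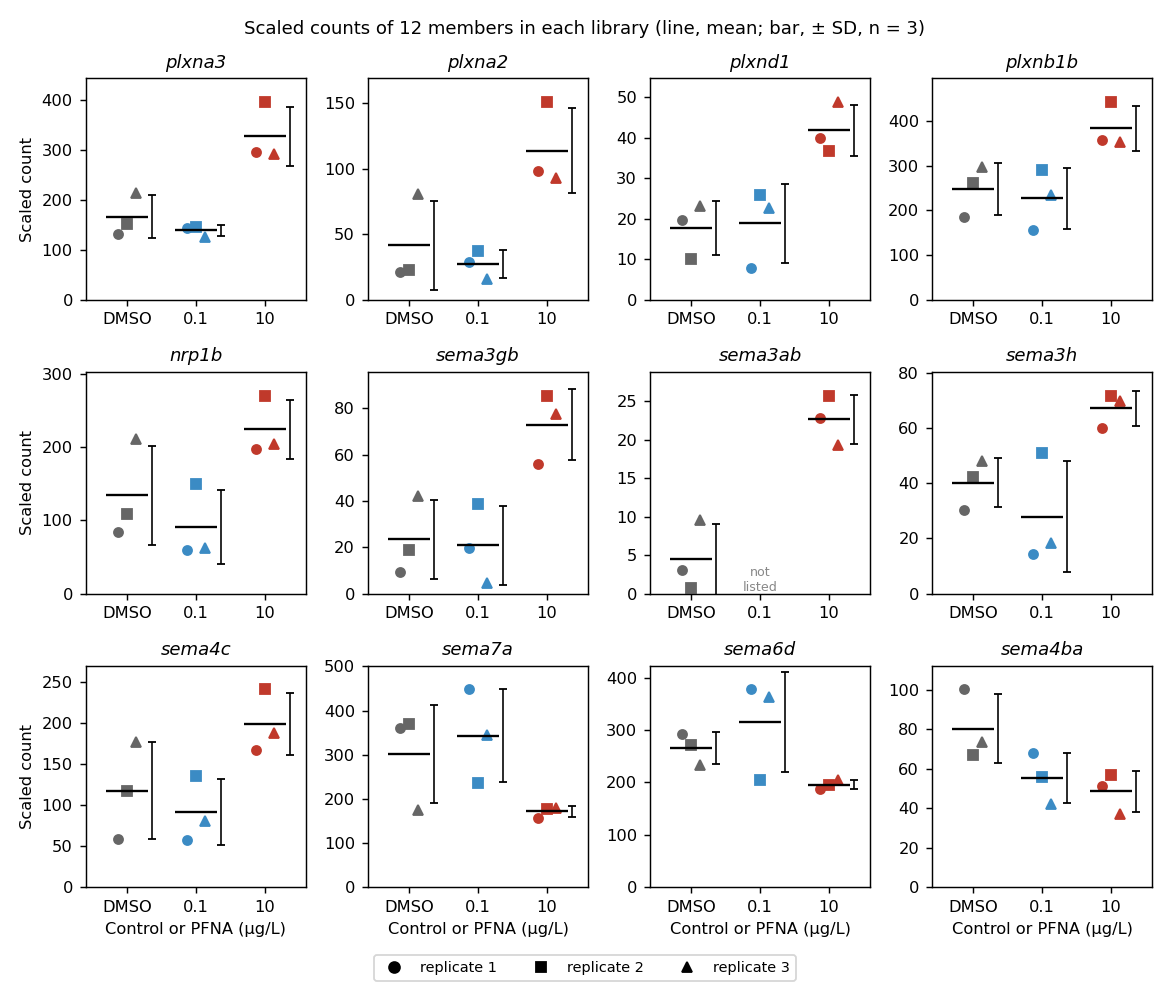
Scaled counts of 12 members (1 panel each, linear axis from 0) in the libraries of DMSO and of PFNA at 0.1 and at 10 µg/L. Points are libraries with the replicate given by the symbol, lines are means and bars are ± SD (n = 3). For plxna3 the 3 libraries at 10 µg/L lie between 291 and 396, above all libraries of the other groups, and in every panel but that of sema4ba DMSO replicate 3 is the control nearest to the 10 µg/L mean.

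Of the ligands, 5 of 27 were higher and 3 were lower at an unadjusted p under 0.05, against 7.91% and 5.21% of all genes. Class 3 semaphorins, which are secreted, made up 4 of the 5 that were higher. Positive log2 fold changes were found for 11 of the 12 class 3 genes, with a median of 0.53, and 5 of the 12 had groups that did not overlap, all higher. Over all genes 50.8% had a positive value, and 9.76% were higher without overlap.

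sema3gb, a class 3 ligand, had 56.1, 85.4 and 77.4 scaled counts at 10 µg/L, against 9.09, 19.0 and 42.2 in DMSO larvae. The groups did not overlap, and the DMSO libraries differed 4.65-fold among themselves. These values gave a log2 fold change of 1.82 (SE 0.49, limma adjusted p = 0.242, DESeq2 adjusted p = 0.0584). Without DMSO replicate 3 it was 2.35 (limma adjusted p = 0.00571).

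sema3ab is a copy of the gene for Sema3a, the class 3 semaphorin known for collapsing the growth cones of sensory axons. It rested on few reads, with 24, 28 and 23 in the 10 µg/L libraries and 2, 1 and 12 in the DMSO libraries. On the common scale this came to 22.8, 25.7 and 19.4 scaled counts at 10 µg/L and 3.03, 0.729 and 9.57 in DMSO larvae. The groups did not overlap. The log2 fold change was 2.501 (SE 0.71, limma adjusted p = 0.242), the largest value of the family and also the one with the second widest SE. Leaving out DMSO replicate 3 gave 3.18 (limma adjusted p = 0.0119). The mean of sema3ab was 24.0 normalized counts at 10 µg/L and 4.75 in DMSO larvae, so it passed the minimum of 10 only through the exposed group. Its higher value is therefore no support for a rise of the family, although it is counted in the totals of members, ligands and class 3 genes above.

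sema3h, a further class 3 gene, had 59.9, 71.6 and 69.9 scaled counts at 10 µg/L, against 30.3, 42.3 and 47.8 in DMSO larvae, with a log2 fold change of 0.74 (SE 0.28, limma adjusted p = 0.323). sema3bl had 36.1, 55.1 and 33.7 scaled counts at 10 µg/L and 24.2, 10.9 and 29.5 in DMSO larvae, with 0.98 (SE 0.43, limma adjusted p = 0.374). In both genes the groups did not overlap. The gene listed as sema3bl carries the symbol SEMA3G in the later gene name table, so its subtype is uncertain. Separation without overlap also held for sema3fa, a copy of the gene for the neuropilin 2 ligand Sema3f, although it missed the unadjusted threshold: it had 540.1, 509 and 485 scaled counts at 10 µg/L and 355, 453 and 409.7 in DMSO larvae (log2 fold change 0.33, SE 0.15). The class 3 gene with a negative value was sema3d, at -0.28 (SE 0.18). In the RefSeq annotation of a later zebrafish assembly sema3ab and sema3e are neighbours with no protein-coding gene between them. On the same chromosome sema3d is separated from sema3ab by 1 protein-coding gene. sema3bl and sema3b are also direct neighbours, and sema3b was at 0.10 (SE 0.16).

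Class 4 semaphorins span the membrane. sema4c, whose product binds Plexin B2 in mouse, had 167, 240.5 and 188 scaled counts at 10 µg/L, against 59.1, 117 and 176 in DMSO larvae. DMSO replicate 3 lay above the lowest exposed library. For sema4c the log2 fold change was 0.86 (SE 0.35, limma adjusted p = 0.344), and 1.21 without DMSO replicate 3 (adjusted p = 0.0256). In the opposite direction, sema4ba had 51.4, 56.9 and 37.0 scaled counts at 10 µg/L, against 100.03, 67.1 and 73.3 in DMSO larvae, with no overlap and a log2 fold change of -0.73 (SE 0.28, limma adjusted p = 0.33). 4 of the 6 class 4 genes had negative values.

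The lower members also included sema7a and sema6d. Sema7a is held in the membrane by a lipid anchor and binds integrins and Plexin C1 in mammals. sema7a had 157, 178 and 179 scaled counts at 10 µg/L, against 361, 370.5 and 175 in DMSO larvae. DMSO replicate 3 lay among the exposed libraries, while DMSO replicates 1 and 2 lay at about the same level as each other and above all exposed libraries. Its log2 fold change was -0.75 (SE 0.28, limma adjusted p = 0.314), and -1.11 without DMSO replicate 3 (adjusted p = 0.00369).

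sema6d had 187, 196 and 205 scaled counts at 10 µg/L, against 293, 271 and 234 in DMSO larvae, with no overlap and a log2 fold change of -0.44 (SE 0.17, limma adjusted p = 0.326). The gene listed as sema6d carries the symbol sema6ca in the same later table, so its class 6 subtype is uncertain. Among class 5 semaphorins, which carry thrombospondin repeats, all 3 values were positive, with 1.11 (SE 0.65) for sema5ba and 0.61 (SE 0.29) for sema5bb, and none passed the unadjusted threshold. The 19 ligands that missed it had log2 fold changes between -0.28 and 1.17, of which 12 were smaller than 0.25 in size. Outside the rule, SEMA4D had a log2 fold change of 0.63 (SE 0.32) and SEMA4F of -0.40 (SE 0.21).

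Ligands and receptors were then set side by side. Positive log2 fold changes were found for 20 of 27 ligands and 11 of 15 receptors, with medians of 0.13 and 0.078. Without DMSO replicate 3 these were 20 ligands and 8 receptors, with medians of 0.20 and 0.038. The 5 receptors at an unadjusted p under 0.05 were all higher, while the 8 ligands were 5 higher and 3 lower. The 2 sets were not tested against each other, because the members were chosen with results of these data known.

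The mean log2 level of each set, relative to its mean over the 9 libraries, was between 0.15 and 0.39 for ligands at 10 µg/L and between -0.33 and 0.18 in DMSO larvae, over the 25 ligands listed in both tables. For receptors it was between 0.22 and 0.36 at 10 µg/L, against -0.17 to 0.077 in DMSO larvae. For 26 ephrin and Eph receptor genes it was 0.109 to 0.350 at 10 µg/L and -0.271 to 0.113 in DMSO larvae. For 20 slit, robo, netrin, dcc and unc5 genes it was 0.0905 to 0.247 and -0.357 to 0.0907. The 54 partner genes read below lay apart, at 0.224 to 0.335 and -0.232 to 0.088. A higher level at 10 µg/L is thus not particular to the receptors. The level over all genes was not counted. Summed scaled counts, which weigh genes with many reads most, overlapped for the receptors, at 7001 to 7321 at 10 µg/L and 6362 to 7124 in DMSO larvae. They overlapped for the ligands as well, at 6172 to 6459 at 10 µg/L and 5677 to 6308 in DMSO larvae. Members with many reads, such as nrp1a, plxna4 and sema3aa, had log2 fold changes of 0.017, -0.084 and 0.12 (SE 0.14, 0.15 and 0.14).

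Markers of tissues were read beside these results, in the fit where 13.1% of all genes had an unadjusted p under 0.05. The 8 neuron markers had a median log2 fold change of -0.24 at 10 µg/L against DMSO, with 1 of 8 positive and none at an unadjusted p under 0.05. Their summed scaled counts were 47190.0 to 49522 at 10 µg/L and 42417 to 64510.4 in DMSO larvae, and the lowest of these was DMSO replicate 3. The 6 endothelium markers had a median of 0.20, with 5 of 6 positive and 1 (flt1) at an unadjusted p under 0.05. Their sums were 961 to 1076 at 10 µg/L, against 854 to 1104 in DMSO larvae. Glia markers had a median of -0.017 (3 of 6 positive, mbpa lower at an unadjusted p under 0.05), and their sums were 24779 to 26925 at 10 µg/L and 19523 to 26159 in DMSO larvae. Liver and gut markers had the largest median, 0.44 (3 of 4 positive), with sums of 52075 to 75130.3 at 10 µg/L and 22785 to 70270.5 in DMSO larvae. Their transferrin gene tfa had 6860.0, 4603 and 4487 scaled counts at 10 µg/L and 3115, 1042 and 6661 in DMSO larvae (log2 fold change 0.89, SE 0.52), so that DMSO replicate 3 lay among the exposed libraries. Skeletal muscle markers had a median of -0.22 (2 of 5 positive) and epidermis markers of 0.025 (2 of 4 positive). No marker of these 3 sets had an unadjusted p under 0.05. The sums for muscle were 637785 to 892551 at 10 µg/L and 717554 to 1098520 in DMSO larvae, and those for epidermis were 165849 to 199914 at 10 µg/L and 126308 to 177107 in DMSO larvae. No marker was at 0 in any library. The part of tissue composition in the results on the family was not tested.

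**Figure D3:**
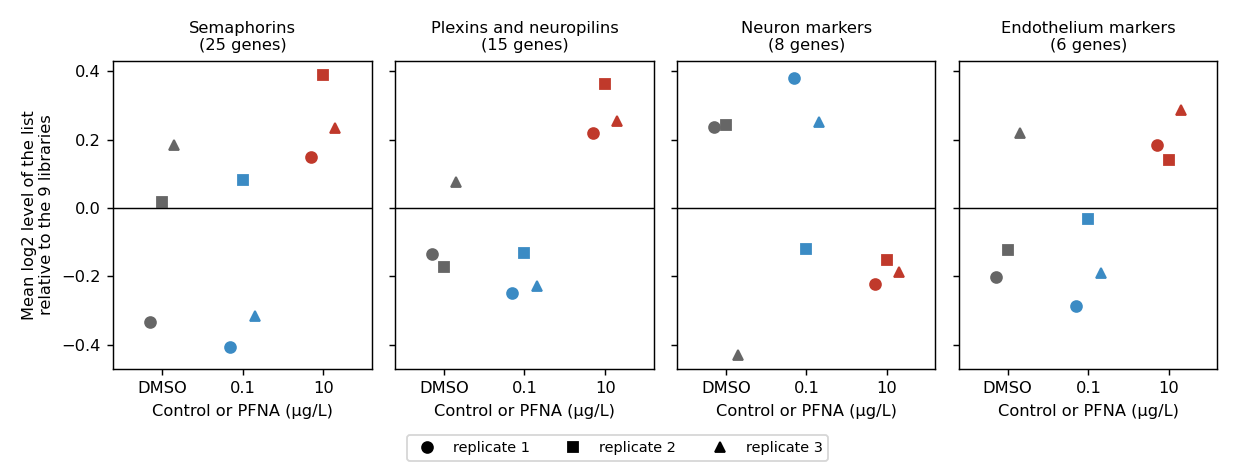
Mean log2 level of 25 semaphorins, 15 receptors, 8 neuron markers and 6 endothelium markers in each library, relative to the mean over the 9 libraries (DMSO and then PFNA at 0.1 and at 10 µg/L on the x axis, symbols for replicates). For receptors the libraries at 10 µg/L lie between 0.22 and 0.36, above all others, and for neuron markers DMSO replicate 3 is the lowest library.

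The position of DMSO replicate 3 was measured in the 13 members at an unadjusted p under 0.05. These were chosen by their p against the same DMSO libraries, and positions over all genes were not counted. On the first principal component over all genes this library also lay within the range at 10 µg/L, so its place cannot be read as particular to the family. DMSO replicate 3 was the DMSO library nearest to the 10 µg/L mean in 12 of the 13 members. It lay at a median of 63.5% (20.6% to 97.4%) of the way from the mean of DMSO replicates 1 and 2 to the 10 µg/L mean. 0.1 µg/L replicate 2 lay at a median of 60.9% of the corresponding distance from the other libraries at 0.1 µg/L (-37.5% to 92.7%, 12 members). With the first index as a covariate, which sets larvae at 10 µg/L against DMSO replicate 3 alone, 2 of 42 members had an unadjusted p under 0.05, where 10.5% of all genes did. The index and the difference between DMSO replicates cannot be told apart.

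The second comparison asked the same of 0.1 µg/L PFNA. It used the same DMSO libraries, so it is not independent of the first. No difference held up: none of 40 members had an unadjusted limma p under 0.05, where 1.57% of all genes did (0.755% higher, 0.813% lower), and none passed the adjusted threshold in limma, edgeR or DESeq2. edgeR had 2 members at an unadjusted p under 0.05, again with no count over all genes. Positive log2 fold changes were found for 15 of 40 members, where 50.6% of all genes had one, with a median of -0.11 against 0.0035 over all genes. By role these were 9 of 25 ligands (median -0.056) and 6 of 15 receptors (median -0.14). In 3 members the groups did not overlap (1 higher, 2 lower), against 6.63% of all genes (3.65% higher, 2.98% lower).

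The 2 that edgeR named were sema4gb and plxnb2a. sema4gb, a class 4 ligand at low read numbers, had 3.90, 8.66 and 6.84 scaled counts at 0.1 µg/L, against 21.2, 16.8 and 12.8 in DMSO larvae (log2 fold change -1.28, SE 0.58, limma adjusted p = 1). plxnb2a, a receptor of class 4 semaphorins, had 325, 329 and 313 scaled counts at 0.1 µg/L and 339, 499.6 and 449 in DMSO larvae (log2 fold change -0.39, SE 0.18). Both were lower at 0.1 µg/L without overlap. The mean of sema4gb was 6.17 normalized counts at 0.1 µg/L and 16.1 in DMSO larvae, so it passed the minimum there only through the DMSO group. The third without overlap was sema4e, at 111, 131 and 124 scaled counts at 0.1 µg/L and 78.8, 104 and 106 in DMSO larvae (log2 fold change 0.35, SE 0.22). These 3 were named after their values were seen. The count at an unadjusted p under 0.05 was 2 without DMSO replicate 1, where 4.47% of all genes passed, and 3 without 0.1 µg/L replicate 2, where 4.29% did.

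Of the 13 members at an unadjusted p under 0.05 at 10 µg/L, 12 were tested at 0.1 µg/L, and 9 of them had negative log2 fold changes against DMSO there. Among the receptors, plxna3 had 144, 146 and 127 scaled counts at 0.1 µg/L (log2 fold change -0.22, SE 0.23) and plxna2 had 28.6, 37.5 and 16.0 (-0.38, SE 0.56). nrp1b had 59.9, 149 and 62.7 (-0.58, SE 0.43), plxnb1b had 156, 292 and 235 (-0.14, SE 0.27) and plxnd1 had 7.81, 26.0 and 22.8 (0.009, SE 0.58). Replicate 2 was the highest library at 0.1 µg/L in each of these receptors.

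Among the class 3 ligands, sema3gb had 19.5, 38.5 and 4.56 scaled counts at 0.1 µg/L (log2 fold change -0.31, SE 0.78), sema3h had 14.3, 51.0 and 18.2 (-0.70, SE 0.49) and sema3bl had 11.7, 19.2 and 5.70 (-0.80, SE 0.60). sema4c had 57.3, 136 and 80.9 (-0.31, SE 0.43). In these ligands, too, replicate 2 was the highest library of the group. Of the members that were lower at 10 µg/L, sema4ba was also lower in value at 0.1 µg/L, with 67.7, 55.8 and 42.2 scaled counts (-0.53, SE 0.29), while sema7a had 448, 237 and 345 (0.22, SE 0.32) and sema6d had 377, 205 and 362 (0.20, SE 0.25). Some of these directions rested on 1 library, DMSO replicate 3. Leaving it out gave log2 fold changes of 0.24 for plxna2, 0.23 for sema3gb and -0.13 for sema7a. It gave 0.047 for sema4c and 0.0075 for plxnb1b, and all of these had the opposite sign. Smaller values of the same sign were left for plxna3 (-0.023), nrp1b (-0.19), sema3bl (-0.52) and sema6d (0.12).

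At 0.1 µg/L against DMSO the neuron markers were higher in value in 8 of 8 genes (median 0.14), the glia markers in 6 of 6 (0.11), the endothelium markers in 1 of 6 (-0.11), the liver and gut markers in 1 of 4 (-0.13), the skeletal muscle markers in 0 of 5 (-0.14) and the epidermis markers in 0 of 4 (-0.23). None had an unadjusted p under 0.05, where 1.57% of all genes did. The part of the markers in the values of the family was not tested.

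**Figure D4:**
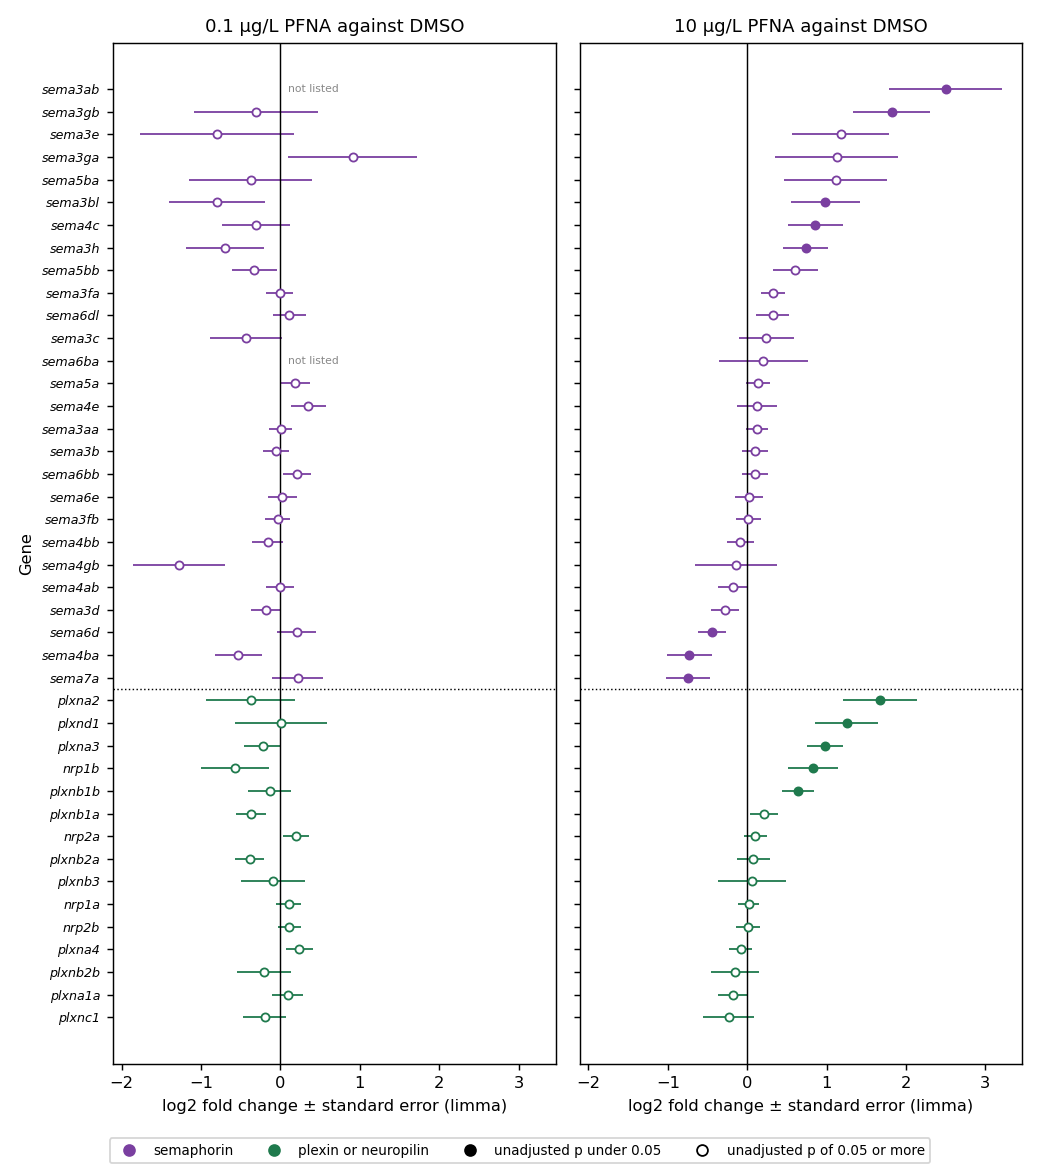
log2 fold changes against DMSO (points, with limma SE as bars) of the members at 0.1 µg/L (left) and 10 µg/L PFNA (right), semaphorins above the dotted line and receptors below it. Filled points have an unadjusted p under 0.05: 13 of 42 at 10 µg/L (10 higher, 3 lower) and none of 40 at 0.1 µg/L.

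The third comparison set 10 µg/L against 0.1 µg/L PFNA directly, on the common scale. Of 40 members, 26 had positive values, where 50.3% of all genes did, and the median was 0.17, against 0.0028 over all genes. At an unadjusted limma p under 0.05, 15 were higher and 3 lower at 10 µg/L, where 25.7% of all genes passed (14.2% higher, 11.5% lower). No member passed the adjusted threshold in limma, where the lowest adjusted p was 0.0767, or in edgeR. The latter had 18 members at an unadjusted p under 0.05, with no count over all genes to compare. DESeq2 called 10 members (9 higher, 1 lower), against 9.21% of all genes. By role, 7 receptors were higher and 1 was lower of 15, and 8 ligands were higher and 2 lower of 25, all at an unadjusted p under 0.05. In 16 members the groups did not overlap (13 higher, 3 lower), against 28.7% of all genes (14.9% higher, 13.9% lower).

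plxna3 led this comparison too, with 296, 396 and 291 scaled counts at 10 µg/L, against 144, 146 and 127 at 0.1 µg/L. The 3 libraries at 0.1 µg/L were close together, replicate 2 included, and lay far under those at 10 µg/L. The log2 fold change was 1.22 (SE 0.17, limma adjusted p = 0.0767, DESeq2 adjusted p = 1.13e-05). Without 0.1 µg/L replicate 2 it was 1.26 (limma adjusted p = 3.84e-04). The value with all libraries for plxna2 was 2.06 (SE 0.35, DESeq2 adjusted p = 7.39e-05), also without overlap.

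Other DESeq2 calls among the receptors were nrp1b at 1.42 (SE 0.33, DESeq2 adjusted p = 0.0058), plxnb1b at 0.79 (SE 0.22, 0.0269) and plxnb1a at 0.60 (SE 0.14, 0.0205). plxnb1a had 417, 388 and 359 scaled counts at 10 µg/L and 256, 289.6 and 225 at 0.1 µg/L, with DMSO larvae between them at 274, 348 and 383. In the 3 comparisons nrp1a, the other copy of the neuropilin 1 gene, had log2 fold changes of -0.071 (10 against 0.1 µg/L), 0.017 (10 µg/L against DMSO) and 0.10 (0.1 µg/L against DMSO). The receptor that was lower at an unadjusted p under 0.05 was plxna4, at -0.30 (SE 0.13).

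Among the ligands DESeq2 called sema4c at 1.19 (SE 0.30, DESeq2 adjusted p = 0.0114), sema3gb at 2.14 (SE 0.61, 0.0177), sema3bl at 1.80 (SE 0.48, 0.0212) and sema5bb at 0.95 (SE 0.29, 0.0494), all higher at 10 µg/L. sema5bb had 84.6, 105 and 56.4 scaled counts at 10 µg/L, against 36.4, 46.2 and 39.9 at 0.1 µg/L. sema7a was lower, with 157, 178 and 179 scaled counts at 10 µg/L, against 448, 237 and 345 at 0.1 µg/L and no overlap. Its log2 fold change was -0.95 (SE 0.22, DESeq2 adjusted p = 0.00324). sema3h, also among the 10 members with the smallest limma p, was at 1.45 (SE 0.44, DESeq2 adjusted p = 0.0673).

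Without 0.1 µg/L replicate 2, 18 of 40 members passed the adjusted threshold in limma, against 27.0% of all genes, and 20 had an unadjusted p under 0.05, against 39.1%. The 18 were 9 ligands and 9 receptors, 14 higher and 4 lower at 10 µg/L. Of the receptors given above, the log2 fold change without that library was 2.32 for plxna2, 1.84 for nrp1b, 0.99 for plxnb1b and 0.69 for plxnb1a. Of the ligands it was 2.77 for sema3gb, 2.17 for sema3bl, 1.98 for sema3h, 1.51 for sema4c, 1.04 for sema5bb and -1.20 for sema7a. All 10 had a limma adjusted p between 9.50e-05 and 0.0258, but they were named for their values in the same libraries, so this is no support. The markers were read from the fit with all libraries, where 25.7% of all genes had an unadjusted p under 0.05 (14.2% higher, 11.5% lower). There, neuron markers were lower at 10 µg/L than at 0.1 µg/L in 7 of 8 genes (median -0.37), 6 of them at an unadjusted p under 0.05. Their sums were 47190.0 to 49522 at 10 µg/L, against 51541 to 70316 at 0.1 µg/L, where the lowest was replicate 2. Endothelium markers were higher in 5 of 6 (median 0.45), 4 of them at an unadjusted p under 0.05, with sums of 961 to 1076 against 795 to 917. Liver and gut markers were higher in value in 3 of 4 (median 0.58), with tfa and apoa1b at an unadjusted p under 0.05. Skeletal muscle markers were higher in value in 3 of 5 (median 0.018), with myhz2 and actn3b at an unadjusted p under 0.05. Glia markers were higher in value in 3 of 6 (median -0.090), with mbpa and plp1b lower at an unadjusted p under 0.05, and epidermis markers in 4 of 4 (median 0.22), none of them at that threshold. The part of these shifts in the values of the family was not tested.

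The pattern of plxna3 over the 9 libraries was most like those of plxna2 (Pearson r = 0.961 on log2 of the scaled count plus 1), sema5bb (0.893), nrp1b (0.870), sema3gb (0.865) and sema4c (0.850). At the other end stood sema7a (-0.838). These values describe 9 libraries of 3 groups and include the differences between the groups.

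Pairs of duplicated genes were compared within each library, as the log2 ratio of the b copy over the a copy, which removes anything that scales both copies alike. In 3 of 10 pairs the ratios at 10 µg/L did not overlap with those in DMSO larvae. Ratios of other gene pairs were not counted, so this number has no direct comparison. Among single genes 18.0% of all genes tested lay apart. For the 3 pairs the exact permutation p (two-sided) was 0.1, the smallest that 3 against 3 libraries allow (0.333 after adjustment over the 10 pairs). For sema3ab over sema3aa the log2 ratio was -5.36 ± 0.12 at 10 µg/L and -7.71 ± 1.33 in DMSO larvae (SD, n = 3 each), on the few reads of sema3ab. Because sema3ab passed the minimum mean only through the exposed group, the separation of this pair is no support.

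The ratio of plxnb1b to plxnb1a was -0.22, 0.19 and -0.027 at 10 µg/L, against -0.57, -0.40 and -0.37 in DMSO larvae. The ratio of sema3fb to sema3fa was -0.56, -0.79 and -0.52 at 10 µg/L, against -0.19, -0.46 and -0.28 in DMSO larvae. For nrp1b over nrp1a it was -3.27, -2.77 and -3.20 at 10 µg/L, against -4.43, -4.21 and -3.02 in DMSO larvae, where DMSO replicate 3 overlapped with the exposed libraries. The mean ratio of this pair was higher by 0.81 at 10 µg/L than in DMSO larvae, and by 1.24 without DMSO replicate 3.

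At 0.1 µg/L against DMSO none of 8 pairs had ratios that did not overlap. Between the concentrations 2 of 8 did, namely sema3gb over sema3ga, with a difference of 1.93, and nrp1b over nrp1a, with 1.49. Other pairs were again not counted, and 28.7% of single genes lay apart in this comparison. Both had an exact permutation p of 0.1 (0.4 after adjustment over the 8 pairs). The ratio of sema3gb to sema3ga was 2.32, 1.80 and 1.78 at 10 µg/L, against 1.02, 1.11 and -2.03 at 0.1 µg/L. At 0.1 µg/L sema3gb had 15, 40 and 4 reads, and the lowest ratio was in the library with 4. nrp2b over nrp2a was the steadiest pair, with differences of -0.094 (10 µg/L against DMSO), -0.086 (0.1 µg/L against DMSO) and -0.0078 (10 against 0.1 µg/L).

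**Figure D5:**
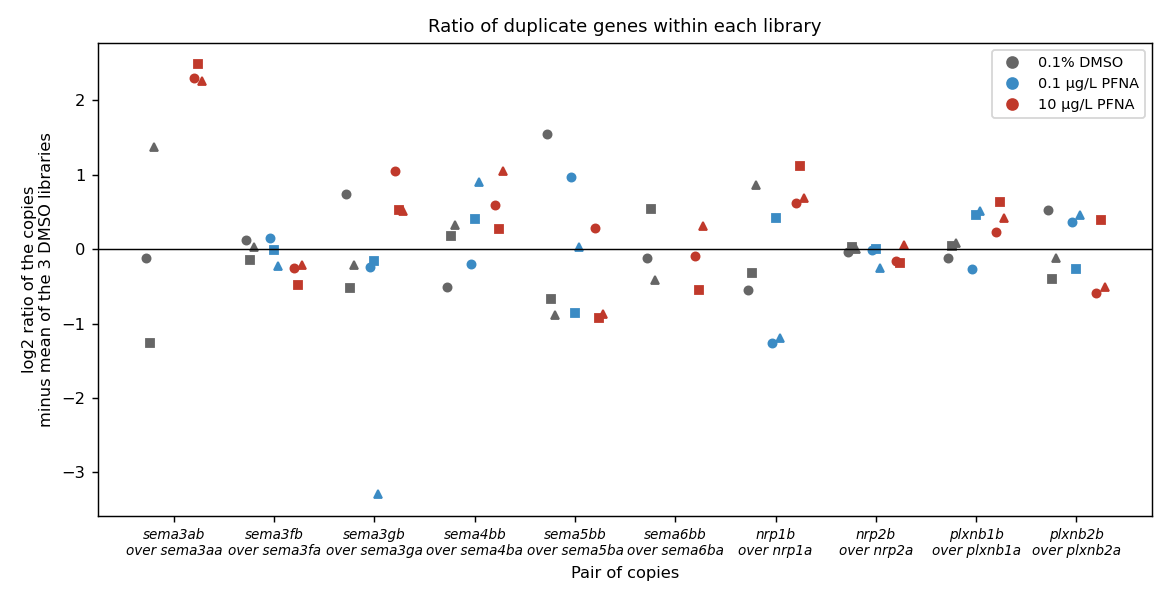
log2 ratio of the b copy over the a copy of 10 duplicated gene pairs in each library, minus the mean of the 3 DMSO libraries (grey DMSO, blue 0.1 µg/L, red 10 µg/L PFNA, symbols for replicates as in the plot of scaled counts). At 10 µg/L the libraries lie apart from DMSO for sema3ab over sema3aa, sema3fb over sema3fa and plxnb1b over plxnb1a, while nrp2b over nrp2a differs by -0.094.

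Genes that act beside plexins in the cell were read from a list of 59 partners, of which 55 were found. The list was chosen with earlier results of these data known, so its counts only describe it and are no independent support. At 10 µg/L against DMSO 42 of 55 had positive log2 fold changes, where 50.8% of all genes did, with a median of 0.18. At an unadjusted p under 0.05, 11 were higher and none lower, against 7.91% and 5.21% of all genes. None passed the adjusted threshold in limma, and DESeq2 called 4, where it called 1.21% of all genes. At 0.1 µg/L none of 54 had an unadjusted p under 0.05, where 1.57% of all genes did. Between the concentrations 38 of 54 had positive values, where 50.3% of all genes did. At an unadjusted p under 0.05, 18 were higher at 10 µg/L and none was lower, against 14.2% and 11.5% of all genes.

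L1 is a cell adhesion molecule that associates with neuropilin 1 as a co-receptor of Sema3a. l1camb had 126, 192 and 125 scaled counts at 10 µg/L, against 19.7, 24.8 and 57.4 in DMSO larvae, with no overlap. Its log2 fold change was 2.20 (SE 0.39, limma adjusted p = 0.224, DESeq2 adjusted p = 3.51e-04). The copy l1cama had 246, 294 and 245 scaled counts at 10 µg/L and 39.4, 75.1 and 169.8 in DMSO larvae (1.69, SE 0.42, DESeq2 adjusted p = 0.03). In both copies DMSO replicate 3 was the highest control.

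Downstream of plexins, collapsin response mediator proteins bind tubulin and are phosphorylated by Cdk5, whose activator p35 is encoded by cdk5r1. cdk5r1b had 383, 519.5 and 373 scaled counts at 10 µg/L, against 105, 102 and 196 in DMSO larvae, and the groups lay apart. The log2 fold change was 1.70 (SE 0.26, limma adjusted p = 0.224, DESeq2 adjusted p = 6.87e-05). dpysl2b, which encodes such a mediator protein, had 665, 668 and 551 scaled counts at 10 µg/L and 300.1, 311 and 352 in DMSO larvae (0.95, SE 0.15, DESeq2 adjusted p = 9.42e-04). Here the 3 DMSO libraries were close together, replicate 3 included.

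The remaining partners named by the rule were also higher at an unadjusted p under 0.05. cdk5r1a had 83.7, 157 and 82.5 scaled counts at 10 µg/L, against 6.06, 14.6 and 63.8 in DMSO larvae (log2 fold change 2.43, SE 0.67). crmp1, a further mediator gene, had 707, 755 and 626 at 10 µg/L and 493, 588 and 483 in DMSO larvae (0.41, SE 0.15). Both lay apart from the controls. gipc1, an adaptor of the neuropilin tail with few reads, had 7.61, 26.6 and 20.2 at 10 µg/L and 3.03, 0.729 and 7.17 in DMSO larvae (2.17, SE 0.77). Like sema3ab, gipc1 passed the minimum mean only through the exposed group. itgb1a encodes a subunit of the integrins that Sema7a binds in mammals, and had 145, 138 and 91.7 at 10 µg/L and 12.1, 24.1 and 127 in DMSO larvae (1.82, SE 0.67). In itgb1a DMSO replicate 3 lay within the exposed libraries. Leaving out this library gave a log2 fold change of 2.76 for itgb1a. Of the 8 named partners crmp1 alone then had a limma adjusted p over 0.05 (0.158), while the others lay between 0.00153 and 0.0477. In that fit 11.1% of all genes passed the adjusted threshold. The 8 were chosen by their p against the same DMSO libraries, so their passing is no support.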

How the data were processed

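RNA-seq was measured in 9 libraries (3 each of 10 µg/L PFNA, 0.1 µg/L PFNA and 0.1% DMSO), grouped by the submitters' sample titles. The authors trimmed reads with Trimmomatic 0.36, aligned them with STAR 2.5.2b to GRCz10 and counted unique exonic reads with featureCounts (Subread 1.5.2). The deposited values are a signal, reads per gene divided by a DESeq2 size factor fitted by the authors within each table of 6 libraries. In all 12 library columns 100.0% of values were whole multiples of 1 read (within 0.001 reads), so reads were recovered, and DMSO reads were identical in both tables. The authors' log2 fold changes and p-values in the deposited tables hold their own comparisons and were not used.

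limma 3.58.1 with a trend (R 4.3.3) was fitted on log2(value + 1) for genes with a mean of at least 10, each concentration within its table. For 10 against 0.1 µg/L, recovered reads were scaled by 1 set of median-of-ratios size factors. p-values were two-sided and adjusted by the Benjamini-Hochberg method over all genes at a threshold of 0.05. Alternatives on the reads were edgeR 4.0.16 and DESeq2 1.42.0. DESeq2 called 229 genes at 10 µg/L against DMSO, 0 at 0.1 µg/L and 1679 between the concentrations. edgeR called 0 in each. Others were pseudocounts of 0.5 and 5, no minimum or one of 50, TMM and quantile normalization, no trend, the replicate block, the first index, and leaving out each library. 0 library columns were left unmapped. The fit was tested on simulated data.

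Members and lists were chosen with earlier results of these data known. Full values were given for members with an unadjusted p under 0.05 against DMSO, the 10 smallest p between the concentrations, every DESeq2 call and the 8 partners with the smallest p. All 42 members matched a gene identifier in a later name table, and 23 had the same symbol there. Depth was 14491289 to 23963715 reads per library, so genes near the minimum rest on few reads.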

Additional observations from a re-analysis of the deposited data

How the results depend on the processing

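No member passed the adjusted threshold in the limma fit above, so no call could be lost. Over 704 alternative values for the named members, 38 passed it. The direction turned in 0 of 252 values at 10 µg/L against DMSO and in 0 of 220 between the concentrations. There 13 of 15 and 13 of 14 named members had an unadjusted p under 0.05. They were named from the same libraries, so a steady direction was likely beforehand and is no support. At 0.1 µg/L against DMSO the direction turned in 12 of 232 values, 10 of these on leaving out 1 library (plxna2, plxnb1b, plxnd1, sema3gb, sema4c and sema7a). No named member had an unadjusted p under 0.05 in that comparison. At 10 µg/L against DMSO, the count at an adjusted p under 0.05 was 1 with DESeq2 and 0 to 9 on leaving out 1 library. The unadjusted count was 2 with the first index as a covariate and 7 to 18 on leaving out 1 library, and the ligand median was 0.53 for class 3 alone. At 0.1 µg/L against DMSO, the unadjusted count was 2 with edgeR and 0 to 3 on leaving out 1 library. It was 1 each without a trend, with a pseudocount of 5 and with quantile normalization. The receptor median was -0.43 with the first index. Shares of all genes were counted only for the settings where they are given above. Between the concentrations, the adjusted count was 10 with DESeq2 and 0 to 18 on leaving out 1 library. The receptor median there was 0.24 with DESeq2, 0.25 with edgeR, 0.025 with quantile normalization, 0.48 for plexins alone and 0.10 to 0.38 on leaving out 1 library. The causes of these changes were not tested, and some settings also held fewer libraries or genes.

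Replicate numbers are shared by the groups, but libraries with the same number did not deviate together (correlations from -0.36 to 0.28 over the 9 pairs), and not every library correlated best with its own number. With the replicate block by title number, the adjusted count between the concentrations was 5 (plxna2, plxna3, nrp1b, sema4c and plxnb1b), and the block changed no other call. The share of all genes called with the block was not counted, so the 5 cannot be set against it. Members under about 30 reads in a library, such as sema3ab, sema3ga and sema4gb, are limited by depth beside the number of replicates. This also holds for named members such as plxnd1, plxna2, sema3gb, sema3bl, sema3h and sema3e. plxnd1 had 13, 14 and 29 reads in the DMSO libraries and sema3gb had 6, 26 and 53.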

Other observations

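Other guidance families were counted for comparison. Of 26 ephrin and Eph receptor genes, 17 had positive log2 fold changes at 10 µg/L against DMSO (median 0.16), with 5 higher and none lower at an unadjusted limma p under 0.05, where 7.91% and 5.21% of all genes were. Of 20 slit, robo, netrin, dcc and unc5 genes, 9 had positive values (median -0.046), with 5 higher and 1 lower. In 5 of the 26 (4 higher, 1 lower) and 7 of the 20 (5 higher, 2 lower) the groups did not overlap, against 18.0% of all genes. At 0.1 µg/L, with the same DMSO libraries, 10 of 26 and 14 of 20 genes had positive values and none passed. Between the concentrations 17 of 26 and 10 of 20 had positive values. At an unadjusted limma p under 0.05, 7 ephrin and Eph receptor genes were higher at 10 µg/L and none lower. Of the slit, robo, netrin, dcc and unc5 genes, 5 were higher and 1 lower, against 14.2% and 11.5% of all genes.

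Over the 42 members, the highest DMSO library was a median of 1.51 times the lowest, against 1.31 times at 10 µg/L. The range was wider in DMSO larvae for 29 of the 42 members. These ranges were not counted over all genes, where the DMSO libraries also lay apart on the first principal component. They cannot be read as particular to the family. With 13.1-fold each, sema3ab and sema3ga had the widest DMSO ranges, both on few reads.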
